A study of Astyanax mexicanus with 14 samples.

Results

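The genes cpdp (ENSAMXG00000001885) and ddb2 (ENSAMXG00000000525) were examined in RNA-seq libraries of whole Mexican tetra larvae. They are 2 of the 19076 genes counted. Both were picked by identifier for their roles in the repair of UV damage, with earlier results of these data known. The study had already reported a strong UV-B response of cpdp in surface fish and none in cavefish. The cpdp tests here are therefore not independent of that choice. The 14 libraries cross population with light. There were 3 cave UV-B and 3 cave control libraries of the blind Pachón cavefish, and 4 surface UV-B and 4 surface control libraries of the river-dwelling surface morph. Larvae were 6 days post-fertilization, UV-B and the white light given to controls each lasted 60 s, and RNA was taken 90 min later from pools of 4 whole larvae. The labels do not say whether pools came from separate clutches, so p-values measure the spread between pools.

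UV-B joins neighbouring pyrimidines in DNA, and the commonest product is the cyclobutane pyrimidine dimer. The gene cpdp encodes the CPD photolyase, an enzyme that binds this dimer and splits it with the energy of visible light. Fish have this enzyme and placental mammals do not. The gene ddb2 encodes the subunit of the UV-damaged DNA-binding complex that finds such lesions in chromatin and hands them to nucleotide excision repair, which cuts the damaged strand and fills the gap. In humans ddb2 is a target of p53 and is the gene mutated in xeroderma pigmentosum group E. In zebrafish, light itself switches on CPD photolyase transcription together with clock genes such as per2.

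Totals ran from 7.42 to 15.26 M counts per library (M, mega-counts). Levels are given as normalised CPM, counts per mega-count after trimmed mean of M-values (TMM) scaling, in which the factors differed between groups. They were 0.762 to 0.878 in cave UV-B, 0.952 to 1.103 in cave control, 0.991 to 1.063 in surface UV-B and 1.123 to 1.185 in surface control libraries. Results that turn on this scaling are therefore given with library totals and with the ribosomal protein gene rpl13a (ENSAMXG00000033532), the reference of the study's quantitative PCR, as scales too. Both genes were well covered, with 389 to 1004 counts of cpdp and 174 to 751 counts of ddb2 in a library. Gene lengths of the build were not used here, so levels of cpdp and ddb2 were not compared with each other.

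After UV-B, both repair genes were lower in cavefish than in surface fish. For cpdp, cave UV-B libraries had 56.3, 59.7 and 70.2 normalised CPM (replicates 1, 2 and 4), against 94.4, 72.1, 87.1 and 83.7 in surface UV-B libraries (replicates 1 to 4). The highest cave pool lay just under the lowest surface pool, and the groups did not overlap. For ddb2, cave UV-B libraries had 31.2, 26.7 and 32.3 normalised CPM, against 47.7, 37.3, 64.0 and 40.3 in surface UV-B libraries. These groups did not overlap either, and the surface pools were spread widely, with replicate 3 the highest. The share of all genes with groups apart in this way was not counted in any comparison here. Such separation therefore describes these pools and does not set the 2 genes apart from others. In bulk RNA from whole larvae, fewer cells that express a gene and less RNA per cell cannot be told apart.

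By edgeR's quasi-likelihood test, the log2 fold change of cave over surface fish after UV-B was -0.44 for cpdp (SE 0.11, 95% interval -0.67 to -0.21, adjusted p = 0.00329) and -0.65 for ddb2 (SE 0.16, interval -0.98 to -0.31, adjusted p = 0.00312). These are levels at 0.738 and 0.638 times those of surface fish. Differences between the populations were common among exposed larvae, as 44.3% of the 15510 genes tested were called at an adjusted p under 0.05 and 22.6% were called lower. Of the 2 genes, 2 were called lower, which with so few members says nothing about repair genes as a class. Both calls held in each of the 16 alternatives. Among these, library totals and rpl13a shifted genes down as a whole, with 6651 and 10872 genes called lower. Those scales therefore test a lower call little. Without single libraries the value of cpdp ran from -0.54 to -0.37, with the highest adjusted p (0.0295) without cave UV-B replicate 1. That of ddb2 ran from -0.75 to -0.47, and it was -0.47 without surface UV-B replicate 3, the high pool (adjusted p = 0.00905).

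**Figure D1:**
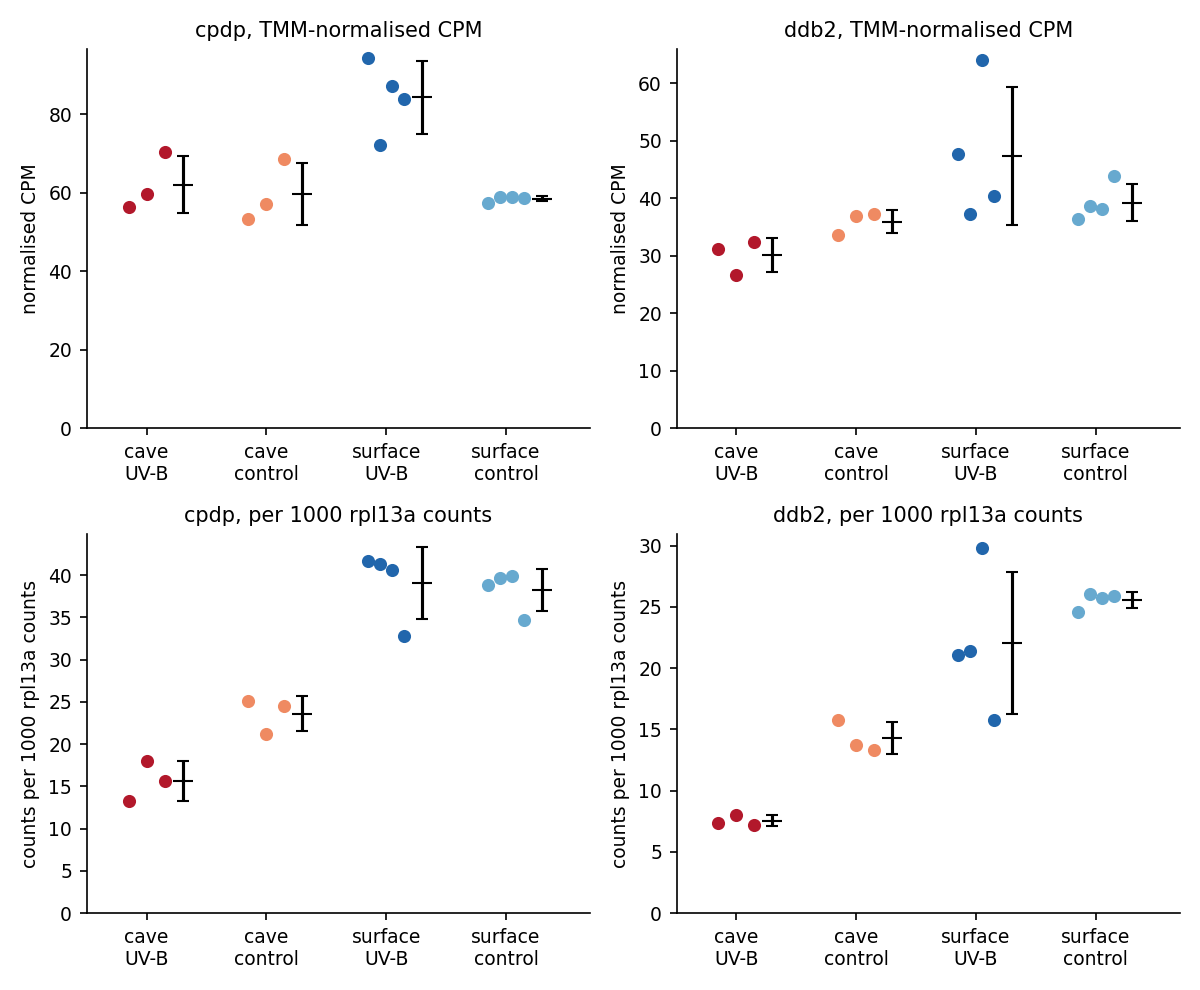
Levels of cpdp (left) and ddb2 (right) in each library, as normalised CPM (top) and as counts per 1000 counts of rpl13a (bottom). Points are libraries of 4 pooled larvae, and bars beside them give the mean ± SD (n = 3 in cave groups, n = 4 in surface groups). In normalised CPM the cave UV-B pools lie under all surface UV-B pools for both genes, and per rpl13a count both cave groups lie under the surface controls.

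Group means place cpdp in surface UV-B larvae apart from the rest. It averaged 62.1 ± 7.26 normalised CPM in cave UV-B, 59.7 ± 7.89 in cave control, 84.3 ± 9.28 in surface UV-B and 58.5 ± 0.730 in surface control libraries (SD). The 3 lower groups had overlapping ranges with their neighbours in this order. For ddb2 the means were 30.1 ± 2.98 in cave UV-B, 35.9 ± 2.03 in cave control, 47.3 ± 11.9 in surface UV-B and 39.2 ± 3.22 in surface control libraries. The order of ddb2 placed cave UV-B lowest, without overlap with cave control, and the other neighbours overlapped.

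How each population reached these levels was compared with its own controls. In cavefish, cpdp had 56.3, 59.7 and 70.2 normalised CPM after UV-B, against 53.4, 57.1 and 68.5 in controls, and the ranges overlapped almost entirely. The cave log2 fold change was 0.054 with a 95% interval of -0.24 to 0.35 (adjusted p = 0.809). In surface fish, cpdp had 72.1 to 94.4 normalised CPM after UV-B, against 57.4, 58.9, 59.0 and 58.6 in controls. All exposed surface pools lay above all surface controls, and the controls were almost equal to each other. Exposed surface fish were 0.52 higher on the log2 scale (SE 0.090, adjusted p = 0.000551). Of the 15523 genes tested in this comparison 28.8% were called and 13.4% were called higher.

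For ddb2 neither response passed the threshold. Cave UV-B libraries had 26.7 to 32.3 normalised CPM, against 33.5, 36.9 and 37.2 in cave control libraries. The cave groups did not overlap, and the log2 fold change was -0.26 (95% interval -0.56 to 0.047, adjusted p = 0.200). Surface UV-B libraries had 37.3 to 64.0 normalised CPM, against 36.4, 38.6, 38.0 and 43.8 in surface control libraries, with overlap. The log2 fold change was 0.26 (interval -0.035 to 0.55, adjusted p = 0.177), and it was 0.086 without surface UV-B replicate 3. Of the 2 genes, edgeR with TMM called 0 in cavefish, where 26.3% of all genes were called. With their main scaling, 0 had an unadjusted p under 0.05 with edgeR, DESeq2 or limma-voom.

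Between unexposed larvae of the populations no difference was detected under TMM scaling. The log2 fold change of cave over surface controls was 0.0042 for cpdp (95% interval -0.23 to 0.24, adjusted p = 0.981) and -0.15 for ddb2 (interval -0.41 to 0.10, adjusted p = 0.376). Of all genes, 27.6% were called in controls, and of the 2 genes 0 were called or had an unadjusted p under 0.05 by any of the 3 tools. The interval of cpdp reaches about as far up as down, so a modest difference between controls in either direction is compatible with these counts. On the other scales calls appeared. With library totals the control difference was -0.18 for cpdp (edgeR, adjusted p = 0.197) and -0.33 for ddb2 (adjusted p = 0.0388). With rpl13a it was -0.69 (adjusted p = 0.000757) and -0.84 (adjusted p = 0.000343). Lower calls were common on these scales. Of the 15812 genes tested, 3845 were called lower with library totals and 10406 with rpl13a.

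The difference between the 2 responses, cave minus surface, was -0.47 for cpdp (SE 0.16, 95% interval -0.80 to -0.14, unadjusted p = 0.00758 and adjusted p = 0.106 by edgeR). For ddb2 it was -0.52 (SE 0.21, interval -0.96 to -0.080, unadjusted p = 0.0229, adjusted p = 0.199). Few genes were called for this difference (3.7% of 16104). With their main scaling edgeR, DESeq2 and limma-voom called 0 of the 2 genes, and 2 had an unadjusted p under 0.05 by each tool. With library totals edgeR called cpdp (-0.60, adjusted p = 0.0230) and not ddb2 (-0.66, adjusted p = 0.0716), and with rpl13a neither (adjusted p = 0.187 and 0.231). Of all genes, 634 were called lower and 128 higher with library totals. The value of ddb2 was -0.34 without surface UV-B replicate 3 (unadjusted p = 0.0658) and -0.43 without cave UV-B replicate 2 (unadjusted p = 0.0698). These differences share the exposed libraries with the population differences after UV-B.

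The scale chosen moved these values, and by construction a change of scale moves all genes nearly alike. With library totals, the median log2 fold change of all genes was -0.34 in cave over surface fish after UV-B, -0.33 in the cave response, -0.18 in the surface response and -0.21 in controls. With rpl13a counts these medians were -0.89, -0.66, -0.47 and -0.72. The share of higher genes among those called after UV-B in cave over surface fish was 48.9% with TMM, 19.1% with library totals and 3.64% with rpl13a. In the cave response it was 47.7%, 15.0% and 3.72%, in the surface response 46.4%, 16.1% and 2.14%, in controls 45.9%, 23.7% and 3.46%, and for the difference in response 38.1%, 16.8% and 17.5%. Directions of single genes are thus directions relative to a chosen scale.

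Subtracting the median of all genes removes by construction the shift that all genes share. Distances from this median therefore hardly move with the scale for any gene, and they do not test the choice of scale. After UV-B, cpdp in cave over surface fish lay at -0.44 from that median with TMM, -0.44 with library totals and -0.43 with rpl13a, and ddb2 lay at -0.65, -0.65 and -0.65. In the cave response cpdp lay at 0.062, 0.067 and 0.068, and ddb2 at -0.25, -0.25 and -0.26. In the surface response cpdp lay at 0.52, 0.51 and 0.50, and ddb2 at 0.26, 0.26 and 0.26. In the difference of the responses cpdp lay at -0.48, -0.47 and -0.46, and ddb2 at -0.53, -0.53 and -0.54. The unshifted values differed more. In cave over surface fish after UV-B they were -0.78 for cpdp and -0.99 for ddb2 with library totals, and -1.32 and -1.55 with rpl13a.

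**Figure D2:**
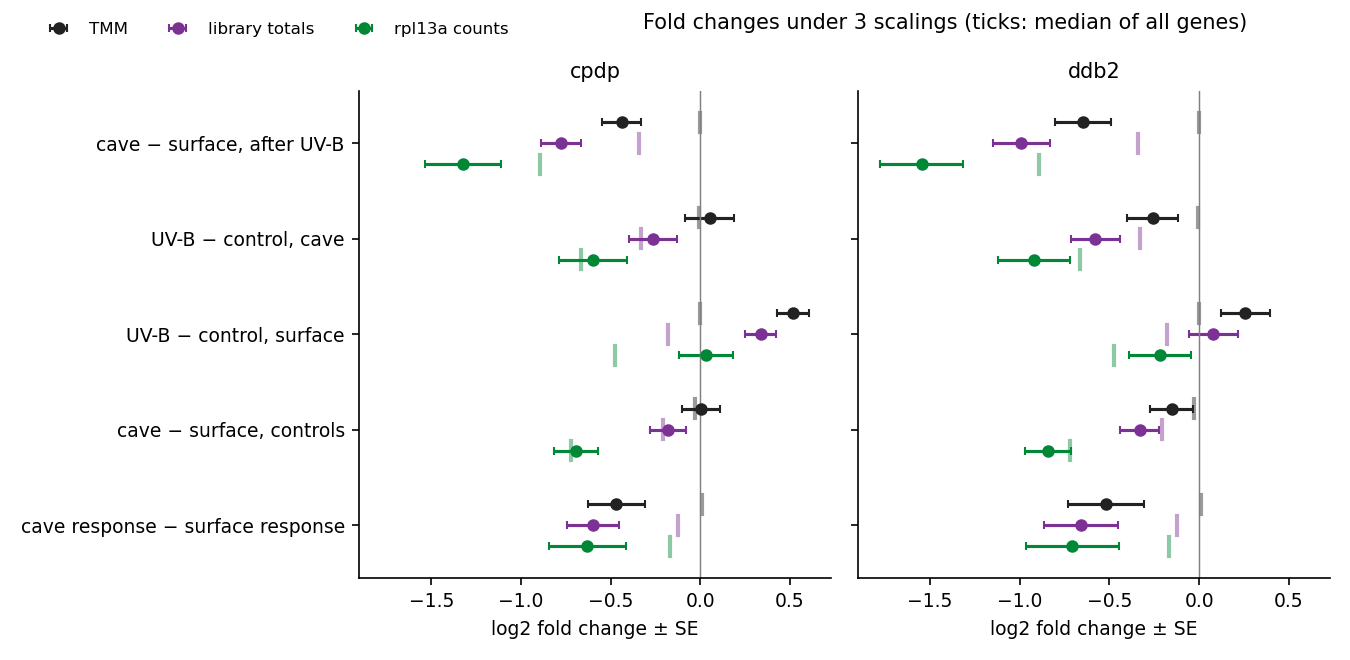
Log2 fold changes (x axis, ± SE) of cpdp and ddb2 in 5 comparisons (y axis) with TMM, library totals and rpl13a counts as the scale. Short pale ticks mark the median of all genes on the same scale. Points shift left together with the ticks, as a change of scale moves all genes nearly alike. After UV-B both genes lie left of the median of all genes with each scale, a distance that a shared shift leaves unchanged.

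The reference gene rpl13a was itself called higher in cave over surface fish and after UV-B in each population. It averaged 4017 ± 615 normalised CPM in cave UV-B, 2537 ± 357 in cave control, 2178 ± 336 in surface UV-B and 1535 ± 105 in surface control libraries. Its cave response was no longer called without cave UV-B replicate 1 or 4 (edgeR, adjusted p = 0.0748 and 0.0694). Per 1000 counts of rpl13a, cpdp was 13.3, 18.0 and 15.6 in cave UV-B libraries, against 25.1, 21.2 and 24.5 in cave control libraries, without overlap. In surface fish it was 41.7, 41.3, 40.6 and 32.8 after UV-B, against 38.8, 39.7, 39.9 and 34.6 in controls, with overlap. For ddb2 the cave values were 7.35, 8.03 and 7.20 after UV-B and 15.8, 13.7 and 13.3 in controls. Its surface values were 21.1, 21.4, 29.8 and 15.8 after UV-B and 24.6, 26.0, 25.7 and 25.9 in controls. On this scale the cpdp response was -0.60 in cavefish (edgeR, adjusted p = 0.0218) and 0.032 in surface fish (adjusted p = 0.867). The medians of all genes there were -0.66 and -0.47, so the cave value of cpdp was close to the shared shift. With library totals the cpdp response was -0.26 in cavefish (adjusted p = 0.160) and 0.34 in surface fish (adjusted p = 0.00694). The rise of cpdp in surface fish was therefore called with TMM and library totals and not with rpl13a, and the cave value was negative with the last 2 scales. For ddb2 the cave response was -0.58 with library totals (adjusted p = 0.00893) and -0.92 with rpl13a (adjusted p = 0.00336), and both of these passed the threshold. Of the 15244 genes tested in cavefish, 4089 were called lower with library totals and 7121 with rpl13a.

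The ratio of cpdp to ddb2 counts within a library does not depend on the scale. It was 1.81, 2.24 and 2.17 in cave UV-B libraries (mean 2.07 ± 0.231, SD), against 1.98, 1.93, 1.36 and 2.08 in surface UV-B libraries (1.84 ± 0.323). It was 1.59, 1.55 and 1.84 in cave control libraries (1.66 ± 0.160), against 1.58, 1.53, 1.55 and 1.34 in surface control libraries (1.50 ± 0.110). The means were higher after UV-B than in controls in both populations, but ranges overlapped in every comparison. Surface UV-B replicate 3, the pool with the high ddb2 level, had the lowest ratio of the exposed pools.

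None of the 5 comparisons of the log2 ratio passed an exact permutation test (two-sided, adjusted over 5). The comparisons between pairs of groups had only 20 to 70 arrangements of libraries. Outside the cave response their smallest possible p is 0.0286. After adjustment these tests had little room to pass, so a missing call says little. The log2 ratio was 0.19 higher in cave than in surface fish after UV-B (exact p = 0.429, adjusted 0.536), and 0.049 higher without surface UV-B replicate 3. After UV-B it was 0.32 higher than in controls in cavefish (exact p = 0.20, adjusted 0.333, where the smallest possible p is 0.10). In surface fish it was 0.28 higher after UV-B than in controls (exact p = 0.114, adjusted 0.333). Without surface UV-B replicate 3 the surface value was 0.42 (exact p = 0.0286, the smallest possible, adjusted 0.143). In controls the log2 ratio was 0.15 higher in cave than in surface fish (exact p = 0.143, adjusted 0.333), and 0.069 higher without cave control replicate 4. The 2 responses of the log2 ratio differed by 0.040 (exact p = 0.911). The counting error of a log2 ratio averaged 0.12 in cave UV-B, 0.10 in cave control, 0.087 in surface UV-B and 0.084 in surface control libraries.

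**Figure D3:**
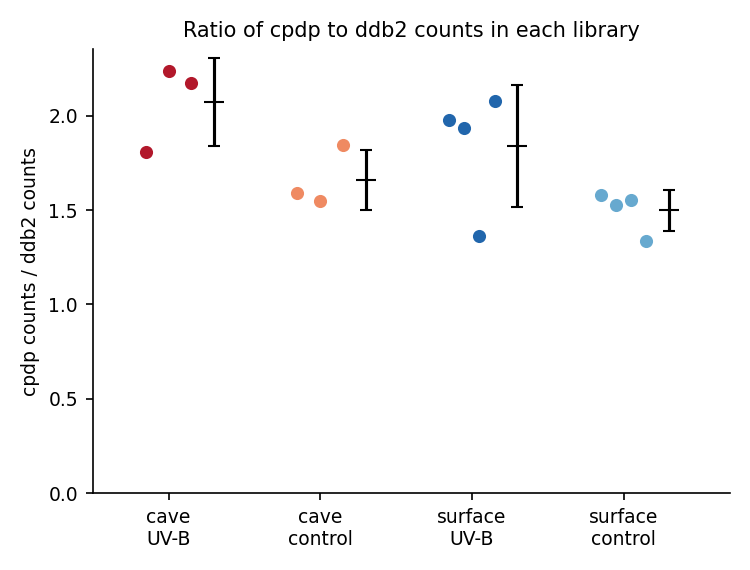
Counts of cpdp divided by counts of ddb2 (y axis) in each library of the 4 groups (x axis), with the mean ± SD beside the points. Cave UV-B pools run from 1.81 to 2.24 and surface control pools from 1.34 to 1.58, and neighbouring groups overlap.

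Across libraries of a population the genes were only loosely related under TMM scaling, and the strength of the relation varied with the scale. In log2 normalised CPM, Pearson's r was 0.630 over the 8 surface libraries (exact permutation p = 0.0666, adjusted 0.192). Spearman's rho was 0.643 (exact p = 0.0962, adjusted 0.192). The adjustment was over the Pearson and Spearman tests of both populations together. Without surface UV-B replicates 1 and 3, the libraries farthest from the median of cpdp, r was 0.0734, and the relation did not hold without those pools, over a narrower range of cpdp. Over the 6 cave libraries r was 0.150 (exact p = 0.812, adjusted 0.919) and rho 0.0857 (exact p = 0.919). With library totals r was 0.735 over cave libraries (exact permutation p = 0.0653) and 0.339 over surface libraries (p = 0.452), both unadjusted. Under TMM, after centring on the treatment means, r was 0.582 over surface and 0.525 over cave libraries, as a description.

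Levels of both genes varied between pools by more than counting error in most groups. The coefficient of variation of cpdp was 11.7% in cave UV-B, 13.2% in cave control and 11.0% in surface UV-B libraries, where counting error alone gives 4.70%, 4.29% and 3.58%. In surface controls it was 1.25%, under the 3.60% of counting error. That of ddb2 was 9.90%, 5.65%, 25.2% and 8.22% in the same 4 groups, against 6.76%, 5.52%, 4.79% and 4.37% from counting. The within-group SD of log2 levels was 0.143 for cpdp, close to the median of 0.140 for 500 genes of like abundance, and 0.212 for ddb2, above that of 77.4% of such genes.

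Responses were also placed among the 250 genes just above and the 250 just below in mean level, as a description with no test. In cave over surface fish after UV-B, cpdp was at percentile 17.2 of its 500 neighbours and ddb2 at percentile 11.8. Differences of that size were not rare, since 144 neighbours of cpdp and 97 of ddb2 had a larger absolute change, and 53.4% and 55.2% of the neighbours were called. In the cave response cpdp was at percentile 53.4, where 452 neighbours had a larger absolute change, and ddb2 was at 31.4. In the surface response cpdp was at percentile 94.4, with 28 of 500 neighbours higher (percentile 97.0 with 50 genes above and below), and ddb2 was at 78.8. In controls cpdp was at percentile 50 and ddb2 at 37.4.

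Both genes sat low among their neighbours in the difference between responses. There cpdp was at percentile 8.0 and ddb2 at 9.2, while 7.2% and 6.2% of the neighbours were called. Within the surface response the standard error of ddb2 was larger than that of 95.8% of its neighbours, and after UV-B in cave over surface fish larger than that of 96.6%. Both comparisons include surface UV-B replicate 3. In the cave response its standard error was larger than that of only 11.0%.

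**Figure D4:**
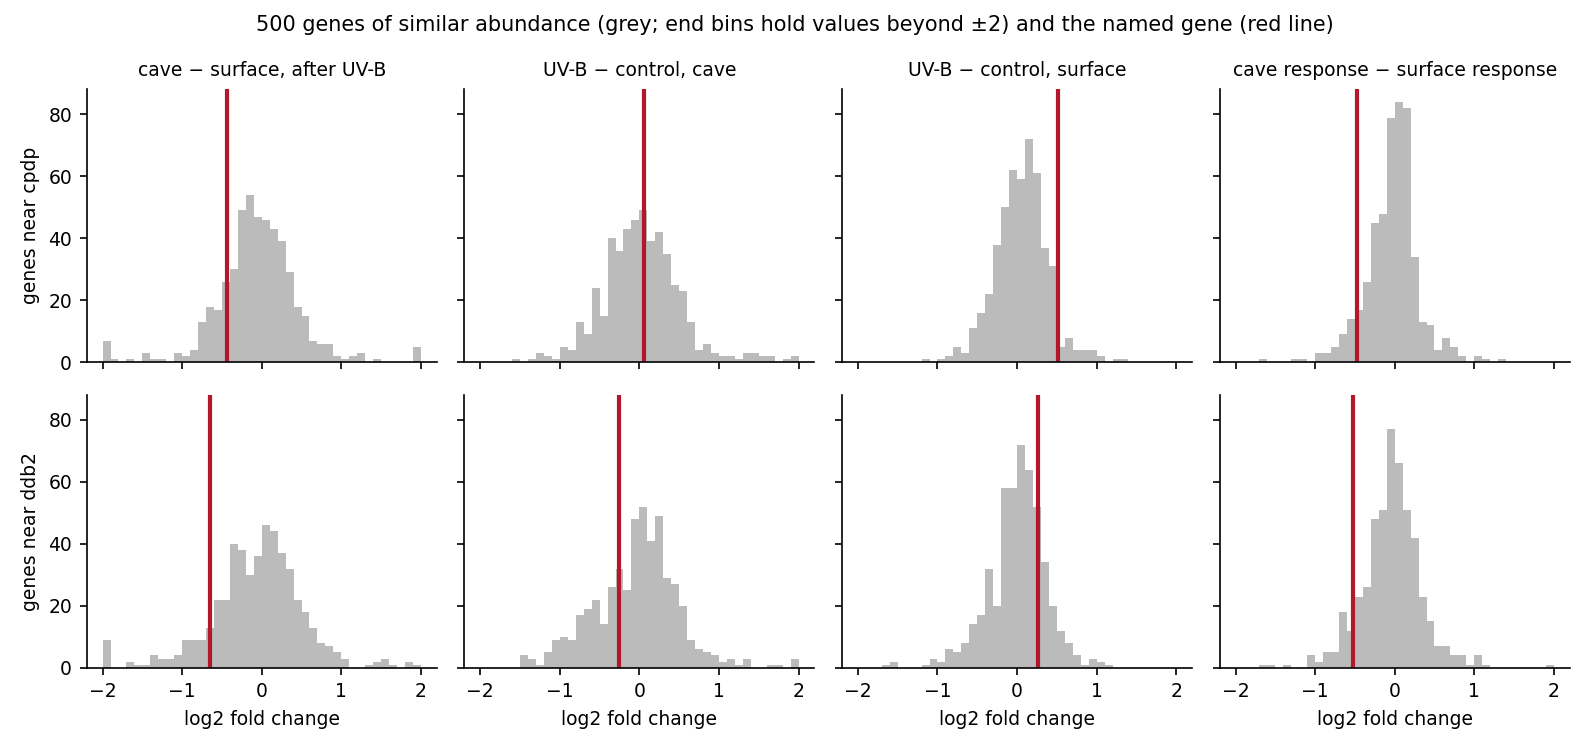
Log2 fold changes (x axis) of 500 genes of similar mean level (grey bars, number of genes on the y axis) around cpdp (top) and ddb2 (bottom) in 4 comparisons, with the gene itself as a red line. The cpdp line is at percentile 53.4 in the cave response and 94.4 in the surface response, and both lines are in the lower tail in the rightmost panels (8.0 and 9.2).

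Genes with levels most like those of each member over the 14 libraries were sought among 12480 genes. For cpdp the 5 highest Pearson correlations ran from 0.862 to 0.881, and the named genes among them were nrgna (ENSAMXG00000029999, r = 0.879), which encodes a neurogranin, and sdr16c5a (ENSAMXG00000031928, r = 0.878), which encodes a short-chain dehydrogenase/reductase. The first was ENSAMXG00000013014 (0.881). For ddb2 they ran from 0.840 to 0.908, led by ENSAMXG00000035422 (0.908). That gene averaged 79.4 normalised CPM in cave UV-B and 129.9 in surface UV-B libraries. Among all these genes ddb2 ranked 601 for likeness to cpdp (r = 0.636), and cpdp ranked 853 for likeness to ddb2. With Spearman's rho 0 of the 5 genes stayed in the first 5 for either member, and with library totals 3 stayed for cpdp and 2 for ddb2.

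Other genes of damage repair, the damage response and the clock were read from lists of 99 symbols. Only 16 symbols could be paired with an identifier, members and rpl13a included. Most of these names come from the study's lists of genes that responded in these same libraries, so their calls are a selection and not independent evidence. The 7 named genes of the p53-type damage response were all called higher under TMM in cavefish, with a median log2 fold change of 1.21, and all 7 in surface fish, with a median of 0.53, while with rpl13a ccng2 was negative in cavefish (-0.20) and ccng1 and ccng2 in surface fish (-0.18 and -0.21). Over all genes the medians were -0.0086 and 0.0010, and 12.6% were called higher in cavefish and 13.4% in surface fish. With library totals 6 of 7 were called in cavefish and 4 of 7 in surface fish, and with rpl13a 4 and 3. Fewer of all genes were called higher on these scales. They were 723 in cavefish and 800 in surface fish with library totals, and 275 and 164 with rpl13a. Under TMM the cave count was 6 of 7 without cave UV-B replicate 1 or 4 or cave control replicate 2 or 3. The gene lost was ccng2 (cyclin G2). In surface fish gadd45ga or ccng2 or both were lost without surface UV-B replicate 1, 3 or 4 or surface control replicate 2, 3 or 4, and the count was then 5 or 6.

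Some of them encode brakes on growth and division. The CDK inhibitor gene cdkn1a (p21) had 88.8, 82.5 and 100.2 normalised CPM in cave UV-B libraries, against 33.0, 32.9 and 37.8 in cave controls. In surface fish it had 63.8, 43.5, 62.0 and 47.7 after UV-B, against 18.7, 14.9, 14.5 and 17.2 in controls. Exposed pools lay above controls in both populations, by log2 fold changes of 1.38 and 1.73. The stress-induced gene sesn2 (sestrin 2) rose by 1.83 in cavefish and by 0.98 in surface fish, and the difference between these responses was called (0.85, edgeR adjusted p = 0.00943, and 0.223 with rpl13a). The same test called gadd45ba, a growth arrest and DNA damage gene, with 0.67 (adjusted p = 0.0278). That call was lost without surface control replicate 3, surface UV-B replicate 2 or 4, cave control replicate 2 or cave UV-B replicate 4, with adjusted p from 0.0539 to 0.0808, with library totals (0.0606) and with rpl13a (0.357). In cave over surface fish after UV-B, 5 of the 7 genes were called higher, where cpdp and ddb2 were called lower and 21.7% of all genes were called higher. With library totals 4 of 7 were called higher and 2 lower, and with rpl13a 0 higher and 2 lower. Of all genes, 1567 were called higher and 6651 lower with library totals, and 411 and 10872 with rpl13a. Part of the difference between populations in these 7 genes was present before exposure. Under TMM, 2 of the 7 were called higher in cave than in surface controls (cdkn1a with 1.06 and ccng1 with 0.45). Another 2 were called lower there (ccng2 with -0.36 and btg2 with -0.31), where 27.6% of all genes were called.

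The damage tolerance list held ube2al and ube2b, which encode ubiquitin-conjugating enzymes of the Rad6 type that act on PCNA at stalled forks. Both were called higher in both populations under TMM. The log2 fold changes of ube2al were 1.27 in cavefish and 0.79 in surface fish, and those of ube2b were 0.53 and 0.44. With library totals ube2b was called in neither population (edgeR, adjusted p = 0.260 in cavefish and 0.0514 in surface fish). With rpl13a the values of ube2b were -0.13 and -0.050, and ube2al was called in cavefish and not in surface fish (0.32, adjusted p = 0.168). No difference between their responses was called (adjusted p = 0.247 and 0.837).

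Of the photolyase family only cry1a could be read beside cpdp, and the clock list held per2, dbpb and nfil3-5. The cryptochrome gene cry1a, whose protein is a relative of photolyases and represses the clock, had 43.3, 63.0 and 46.0 normalised CPM in cave UV-B libraries, against 82.7, 86.1 and 86.7 in cave controls. In surface fish it had 160.7, 158.3, 184.6 and 165.6 after UV-B, against 143.2, 134.2, 139.3 and 147.4 in controls. It fell in cavefish, with a log2 fold change of -0.75 (adjusted p = 0.00208), and was called higher in surface fish, with 0.24 (adjusted p = 0.0340). The surface call was lost with library totals (log2 fold change 0.060, adjusted p = 0.601), in the fit of all 14 libraries (adjusted p = 0.0777), and without surface control replicate 1, 2 or 3 or surface UV-B replicate 3 or 4 (adjusted p from 0.0584 to 0.106), and with rpl13a the value was -0.24. The period gene per2 had 30.2, 34.8 and 33.8 normalised CPM in cave UV-B libraries, against 50.5, 54.5 and 53.9 in cave controls. It had 82.0, 88.4, 81.0 and 78.8 in surface UV-B libraries, against 55.5, 55.4, 62.4 and 62.3 in surface controls. Its log2 fold change was -0.69 in cavefish and 0.48 in surface fish, where it was 0.015 with rpl13a.

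For per2, cry1a and dbpb the responses differed by the test of the difference itself, and for nfil3-5 no difference was called (0.46, edgeR adjusted p = 0.149). The difference was -1.17 for per2 (edgeR adjusted p = 7.72e-05), -0.99 for cry1a (adjusted p = 0.000986) and -0.83 for dbpb (adjusted p = 0.00112, and 0.0553 with rpl13a), a D-box binding transcription factor gene. The members' own differences of -0.47 and -0.52 have the sign of these 3 and were not called under TMM, while that of cpdp was called with library totals. Unlike the members, dbpb was called higher in cave than in surface fish, by 2.53 in controls and 1.72 after UV-B. The surface response of dbpb was not called (0.18, edgeR adjusted p = 0.214). The related repressor gene nfil3-5 was called higher in both populations, with 1.03 in cavefish and 0.56 in surface fish. With rpl13a both calls were lost (0.36, edgeR adjusted p = 0.250 in cavefish, and 0.079, adjusted p = 0.707 in surface fish). Over the 14 libraries per2 had an r of 0.757 with ddb2 (rank 96 of 12480) and of 0.591 with cpdp (rank 895). For cry1a it was 0.747 with ddb2 (rank 117) and 0.453 with cpdp (rank 2261). The clock genes dbpb and nfil3-5 had -0.562 and 0.137 with ddb2, and -0.364 and 0.541 with cpdp. The p53-type genes ccng2 (0.741, rank 122) and btg2 (0.666, rank 414) were closer to cpdp than per2 was. These r pool the 4 groups, so differences between the groups enter them.

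**Figure D5:**
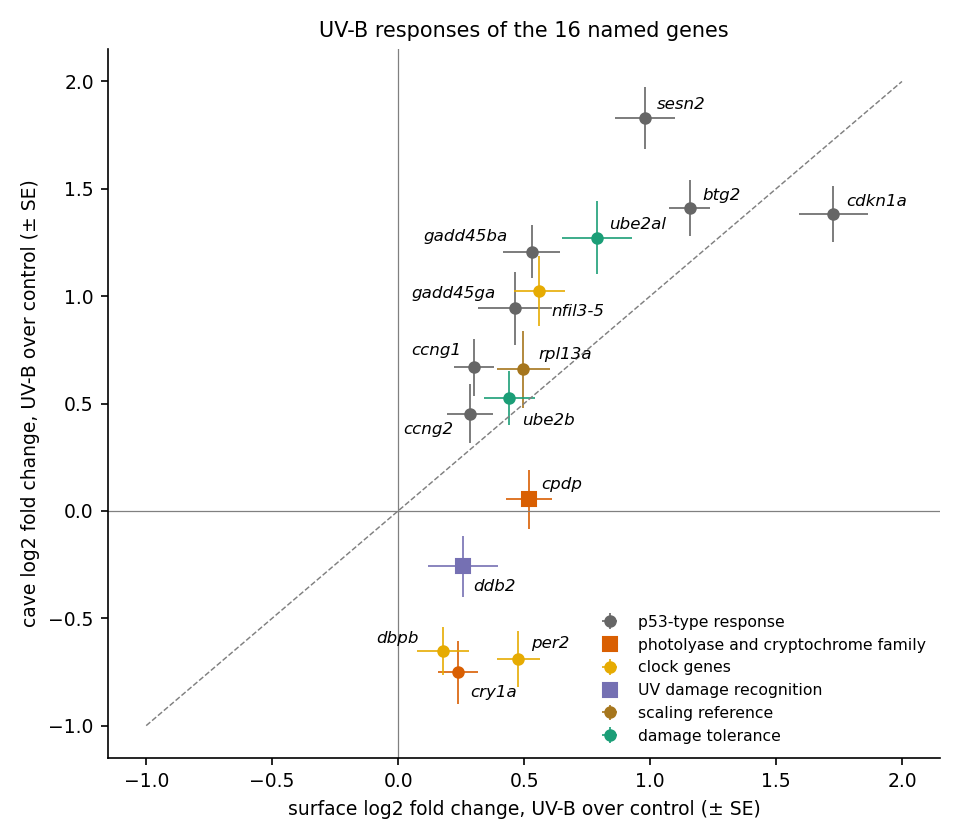
Log2 fold changes of UV-B over control in cavefish (y axis) and in surface fish (x axis) for the 16 genes with a name, each ± SE, with squares for cpdp and ddb2, colours for the lists and a dashed line for equal responses. The values are those of TMM scaling, where the 7 p53-type genes are positive on both axes (with rpl13a, ccng2 is negative in cavefish and ccng1 and ccng2 in surface fish), cpdp lies near 0 in cavefish, and ddb2, cry1a, per2 and dbpb are negative there.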

How the data were processed

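Whole larvae were sequenced after poly(A) selection, with 1 library per pool. The methods of the study state that reads were mapped by the authors with STAR to the A. mexicanus genome with the Ensembl annotation, and the authors deposited raw read counts per gene. The strand setting was not given in the sources used here. For most genes the deposited counts are lower than those in the study's supplement, which was not resolved. Depths, levels and calls therefore describe the deposited counts only. Groups came from the sample labels.

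Each comparison was fitted on all genes with edgeR 4.0.16 in R 4.3.3 (quasi-likelihood test, TMM, filterByExpr, Benjamini-Hochberg adjustment, calls under 0.05) on the libraries compared, and the difference in response as an interaction over 14 libraries. A prior count of 2 entered log2 levels. Ratios and correlations used exact permutation tests (scipy 1.17.1). DESeq2 1.42.0, limma 3.58.1 (voom), 2 further filters, 3 further scales, a joint fit, a replicate block and fits without single libraries were alternatives. The edgeR test was run on simulated data with known changes, as many up as down. Those data held no shift in scale between groups, so they do not test the choice of scale. Replicate libraries differed beyond sampling noise (chi-square of 5.01 to 18.5 per degree of freedom). The limit of a count of 0, which is 3 counts, is 0.197 to 0.404 CPM, for counting error only.

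The members and lists were chosen with earlier results of these data known. Named are the members, rpl13a, list genes with an identifier in the study's methods or supplementary tables, and of the 5 genes most like each member (mean of at least 50 counts) those with a name and the first. The reference gene table used for names, of another assembly, matched 0 identifiers, so no coordinates or sequences are given.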

Additional observations from a re-analysis of the deposited data

Results flagged for a closer look

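Among 34 sets of 4 surface libraries checked for a pool far from the rest, 2 held one, where chance gives about 1 in 20. The level of btg2 (an antiproliferative gene) in surface control replicate 4 was 228 normalised CPM, against 197 to 200 in the other surface controls. That of rpl13a in the same library was 1693 normalised CPM, against 1480 to 1485. Neither cpdp, ddb2 nor their ratio held such a pool, the gap of surface UV-B replicate 3 for ddb2 being 0.610 of the range of the surface UV-B libraries and under the limit used.

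By edgeR's interaction test the UV-B response differed between cave and surface fish for 5 of the 16 named genes. Of all 16104 genes tested, 3.7% were called. The log2 difference was -1.17 for per2, -0.99 for cry1a and -0.83 for dbpb, and 0.85 for sesn2 and 0.67 for gadd45ba. With rpl13a the calls of sesn2, dbpb and gadd45ba were lost (edgeR adjusted p = 0.223, 0.0553 and 0.357). That of gadd45ba was also lost with library totals and in several fits without a single library. The names come from lists of genes that responded in the same libraries.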

How the results depend on the processing

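The calls of cpdp and ddb2 in cave over surface fish after UV-B held in all 16 alternatives each, and the number of genes called there ran from 5771 to 6521 without single libraries. Library totals and rpl13a, which shift genes down as a whole, test these lower calls little. Scaling moved the other results. With rpl13a counts the response of cpdp was -0.60 in cavefish and 0.032 in surface fish, and that of ddb2 was -0.92 in cavefish and -0.22 in surface fish. The control difference was then -0.69 for cpdp and -0.84 for ddb2, and both were called. On that scale 10406 of the 15812 genes tested in controls were called lower. With library totals the cave response was -0.26 for cpdp and -0.58 for ddb2, the control difference -0.18 and -0.33, and the difference in response of cpdp -0.60. Of these, both values of ddb2 and the difference in response of cpdp passed the threshold (edgeR, adjusted p = 0.00893, 0.0388 and 0.0230). The control difference of cpdp, near 0, changed sign with no filter (-0.0030), at least 10 counts (-0.0049), limma-voom (-0.0017) and the replicate block (-0.0097). Without single libraries it ran from -0.072 to 0.11, the cave response of cpdp from -0.043 to 0.16, and the difference in response of the log2 ratio from -0.098 to 0.14. The correlation over cave libraries was -0.583 under TMM without the 2 libraries farthest from the median of cpdp. It was 0.735 with library totals and 0.928 per rpl13a count, a denominator both genes share.

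Replicate numbers were not treated as pairs in the main fits: deviations of same-numbered libraries correlated at -0.20 to 0.23. Libraries with different numbers were not compared in this way, so a weak pairing was not tested. With the replicate block the cave against surface difference after UV-B was -0.42 for cpdp (edgeR adjusted p = 0.00517) and -0.47 for ddb2 (adjusted p = 0.00412). The block ended the cave call of ccng2 (0.44, adjusted p = 0.0646).

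Directions of other named genes also turned with the scale. With rpl13a, values in cave over surface fish after UV-B were -0.26 for ube2al, -0.70 for ube2b, -0.15 for cdkn1a, -0.039 for gadd45ba, -0.32 for gadd45ga and -0.051 for ccng1. Cave responses were -0.13 for ube2b and -0.20 for ccng2, and surface responses -0.24 for cry1a, -0.050 for ube2b, -0.18 for ccng1, -0.21 for ccng2 and -0.29 for dbpb. With library totals ube2b was -0.16 after UV-B and the surface response of dbpb was -0.0016. The difference in response of ube2b was -0.051 with library totals and -0.080 with rpl13a. Without single libraries the value of btg2 after UV-B ran from -0.12 to 0.040, the only positive value being without cave UV-B replicate 2. DESeq2 also called the difference in response of ccng1 (0.35, adjusted p = 0.0247). The cause of these shifts was not tested. The lowest count in a library was 174 for ddb2 and, among the other named genes, 102 for ube2al.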
